A study of Mus musculus with 6 samples.

Results

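The dystrophin glycoprotein complex was followed here through 8 of its genes, Dmd, Utrn, Dag1, Sgca, Sgcb, Sgcd, Dtna and Sntb1, which were taken by their gene symbol from the 35976 genes quantified by RNA-seq in satellite cells (SCs), the resident stem cells of skeletal muscle. The 6 libraries were of SCs from NF-YAcKO mice (n = 3) and from NF-YAfl/fl mice (n = 3). In NF-YAcKO mice, both Nfya alleles are floxed and a tamoxifen-inducible Cre is expressed from the Pax7 locus (Pax7-CreERT2). NF-YAfl/fl mice carry the same floxed alleles without Cre, and both groups received tamoxifen, dissolved at 20 mg/ml. The mice were then 5 to 7 weeks old per the labels and slightly older per the study's methods. Cells carrying CD31, CD45, CD11b or Sca1 were removed with magnetic beads, and the remaining cells were grown in growth medium on Matrigel before RNA extraction, so the libraries describe cultured SCs and not fresh ones. The study describes the loss of NF-YA in SCs of these mice as incomplete. Nothing in the labels says how many mice gave each library.

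Dystrophin is a long rod-shaped protein that binds actin under the muscle membrane and, through its C-terminal part, the transmembrane protein dystroglycan, whose glycosylated outer subunit binds laminin in the matrix. The sarcoglycans form a membrane subcomplex beside dystroglycan, and dystrobrevin and the syntrophins bind dystrophin on the inner side and recruit signalling proteins. Loss of dystrophin or of alpha-, beta- or delta-sarcoglycan causes muscular dystrophy. Dmd also holds internal promoters, the most distal of which drives short forms that lack the actin-binding part and most of the rod and occur in many cell types. NF-Y is a trimeric transcription factor that binds the CCAAT box, and NF-YA is its sequence-specific subunit.

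To show where transcription of the members starts, the RefSeq promoter windows (build GRCm38.p6, 250 bases before to 50 bases after a start site) were read. Windows were at hand for 6 of the 8 genes, with 2 windows each for Dmd and Dag1, which makes 8 windows. Dtna and Sntb1 had no window, so their promoters were not read. The 250 bases before the 2 Dmd start sites with a window are printed because the Dmd results below part by promoter. The annotated Dmd gene begins before both windows, at position 82814664, so these need not be its only start sites. Those of 1 Dag1 start site are printed because Dag1 was the only one of these 6 genes with a CCAAT box in its windows. Capitals mark CCAAT or its reverse complement ATTGG, and GGGCGG or its reverse complement CCGCCC, a GC box of the kind bound by Sp1. All 3 stretches overlap no exon of the GENCODE annotation of the same build and are written 5′ to 3′ in the direction of the gene.
Dmd upstream start site, chrX:82948620-82948869, plus strand: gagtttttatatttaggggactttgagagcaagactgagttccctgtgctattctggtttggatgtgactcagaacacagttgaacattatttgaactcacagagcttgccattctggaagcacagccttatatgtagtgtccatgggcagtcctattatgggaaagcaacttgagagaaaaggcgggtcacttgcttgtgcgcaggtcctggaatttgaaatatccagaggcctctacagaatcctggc
Dmd internal start site, chrX:85048045-85048294, plus strand: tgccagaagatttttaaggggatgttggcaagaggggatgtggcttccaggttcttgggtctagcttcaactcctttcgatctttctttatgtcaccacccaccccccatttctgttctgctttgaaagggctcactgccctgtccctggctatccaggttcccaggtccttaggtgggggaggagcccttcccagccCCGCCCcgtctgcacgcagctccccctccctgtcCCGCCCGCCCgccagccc
Dag1, chr9:108263959-108264208, minus strand: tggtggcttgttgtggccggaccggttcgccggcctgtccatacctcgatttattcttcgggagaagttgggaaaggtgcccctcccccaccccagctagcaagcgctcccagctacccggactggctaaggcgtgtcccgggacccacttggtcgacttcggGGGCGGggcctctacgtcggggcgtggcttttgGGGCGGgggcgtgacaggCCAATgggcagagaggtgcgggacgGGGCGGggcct
The upstream Dmd stretch had 45.2% G and C and 2 CpG dinucleotides, and held neither motif. The internal Dmd stretch, 2099 kb further along the X chromosome and within an intron of full-length Dmd, had 60.0% G and C and 7 CpG dinucleotides, and held 3 GC boxes, of which the last 2 overlap. The Dag1 stretch had 67.6% G and C, with CCAAT beginning 36 bases before the start site and GC boxes at 87, 54 and 11 bases before it. CCAAT on either strand was found in 2 of the 8 members' windows, both of Dag1, whereas 37.4% of all 32851 RefSeq windows hold it. CAGCTG, an E-box bound by myogenic factors, was found in none of the 8, beside 16.3% of all windows. GGGCGG, a motif added after the sequences were seen, was found in 5 of the 8, beside 35.7% of all windows. The 2 Dag1 windows overlap and share the CCAAT box and the GC boxes given above, so the CCAAT and GGGCGG counts hold these sites in both windows. These letters are a description of the windows and do not show binding.

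The depth of the 6 libraries was 26936230 to 41118984 expected counts, the read counts that RSEM assigns to genes. Levels are given as counts per 1000000 counts of the library (CPM), after TMM scaling. A gene was called when the Benjamini-Hochberg false discovery rate (FDR) of edgeR's quasi-likelihood test over 17348 tested genes was under 0.01 and its log2 fold change was beyond 1 in either direction. The transcript entry that the authors made for the deleted Nfya allele took 22.3%, 26.4% and 34.2% of the Nfya counts in the NF-YAcKO libraries and 0% in each NF-YAfl/fl library, so the libraries matched their labels. The genotypes also differed in sex-linked RNA, although the study's methods name male mice only. Xist was at 836 to 852 CPM in NF-YAcKO and at 0.31 to 0.48 CPM in NF-YAfl/fl, and the 4 Y-linked genes examined were at no more than 0.14 CPM in NF-YAcKO and at 37.3 to 88.6 CPM in NF-YAfl/fl. Sex and genotype therefore cannot be told apart in any value below, which includes Dmd, an X-linked gene. Replicates of NF-YAfl/fl varied more (biological coefficient of variation 0.310) than those of NF-YAcKO (0.105).

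Transcripts of the complex were less abundant in NF-YAcKO SCs. Of the 8 genes, 5 fell by the call rule, Sntb1, Dmd, Dtna, Sgca and Dag1, and none rose, where 7.67% of all tested genes fell and 4.65% rose. The other 3, Sgcd, Utrn and Sgcb, had lower means but were not called. In all 8 genes every NF-YAcKO library lay below every NF-YAfl/fl library, a separation seen in 26.2% of tested genes. The median log2 fold change of the 8 was -1.70, against -0.02 over all tested genes. All 8 passed the filter on low counts, the lowest value being that of Sntb1 in NF-YAcKO replicate 1, at 3.38 CPM. Without NF-YAcKO replicate 1 the number called lower was 3, Dmd, Dtna and Sntb1, and all 8 fold changes remained negative.

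The cells differed in other ways that ran with the genotype. All 8 differentiated muscle markers examined, among them Myog, Myh3 and Ttn, fell, with a summed level of 619 to 1388 CPM in NF-YAcKO and 42616 to 51323 CPM in NF-YAfl/fl. The summed level of 7 satellite cell and myoblast markers was 1450 to 1630 CPM in NF-YAcKO and 2223 to 3878 CPM in NF-YAfl/fl. Its members went both ways. Cdh15 and Des fell, whereas Pax7, which defines SCs, was at 145, 165 and 201 CPM in NF-YAcKO and at 73.5, 87.5 and 105 CPM in NF-YAfl/fl, and Vcam1 was at 90.4 to 135 CPM and 52.3 to 63.6 CPM, neither of them called. Of 8 macrophage markers, 7 rose, and their sum was 137 to 270 CPM in NF-YAcKO against 4.75 to 14.8 CPM in NF-YAfl/fl, although CD45 and CD11b cells had been depleted. Of 5 Schwann cell markers 4 rose, with sums of 32.5 to 35.9 CPM against 8.03 to 11.7 CPM. Sums for 7 fibro-adipogenic markers overlapped, at 1930 to 2332 CPM in NF-YAcKO and 1069 to 2833 CPM in NF-YAfl/fl, as did those for 6 pericyte and smooth muscle markers, at 231 to 325 CPM and 181 to 672 CPM. The sums of 6 endothelial markers were 15.8 to 20.5 CPM and 12.1 to 13.4 CPM, with Kdr higher and Vwf lower in NF-YAcKO. No marker on these lists was at 0 in all libraries of a genotype. The part of these differences in the values of the complex was not tested, and in such bulk samples fewer cells of a type and less RNA per cell cannot be told apart.

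**Figure D1:**
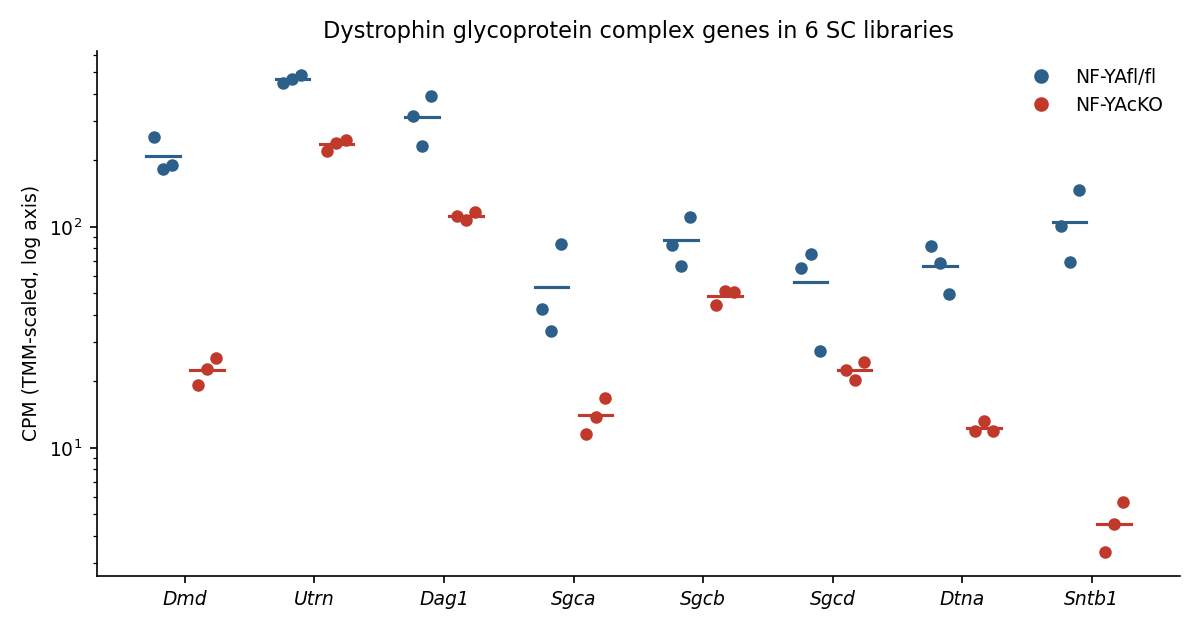
TMM-scaled CPM on a log axis for the 8 complex genes, with 1 point per library and a line at each group's mean (blue, NF-YAfl/fl, n = 3; red, NF-YAcKO, n = 3). In each gene the 3 red points lie below the 3 blue ones; the gap is widest for Sntb1 and narrowest for Sgcd, whose NF-YAfl/fl replicate 3 (27.5 CPM) is close to the highest NF-YAcKO value (24.4 CPM).

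Dmd, which encodes dystrophin (NCBI gene 13405, chrX:82814664-85205050), was at 19.2, 22.7 and 25.4 CPM in NF-YAcKO replicates 1 to 3 and at 255, 182 and 190 CPM in NF-YAfl/fl replicates 1 to 3. The highest NF-YAcKO library held less than the lowest NF-YAfl/fl library by a wide margin, and no library stood close to the other group. Dmd fell by 3.22 on the log2 scale (SE 0.18, edgeR FDR 9.1e-05), a 9.32-fold lower level. It was called under every one of the 15 alternatives tried.

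The size of the Dmd change depended on the unit. TPM (transcripts per 1000000), which divides the reads of a transcript by its effective length, gave Dmd values of 5.25, 4.40 and 6.09 in NF-YAcKO and 22.4, 20.5 and 13.5 in NF-YAfl/fl. With limma on log2(TPM + 1) the log2 fold change was -1.64 (SE 0.22, FDR 0.0031), and on log2(TPM + 0.1) it was -1.80 (SE 0.24, FDR 0.0020). Both genotypes thus kept their order, but the difference shrank once reads were set against the length of the transcripts they were assigned to. The Dmd transcripts themselves show which lengths these were.

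RSEM assigned reads to 16 Dmd transcripts, 10 longer than 10000 nt, 4 whose models begin at the internal start site printed above, and 2 other short ones. The 4 internal models (4496 to 4567 nt) were placed through GENCODE, where both matching transcripts begin at position 85048413, 118 bases past the RefSeq start site. The 2 other short transcripts had no GENCODE match, so their start sites were not placed. The internal class may therefore not hold every form from that start site. Full-length dystrophin comes from the long class, and the most abundant long transcript, NM_007868.6 (13852 nt), begins in GENCODE at position 82948903 beside the upstream start site.

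Transcripts longer than 10000 nt were at 3.40, 4.42 and 5.50 CPM in NF-YAcKO and at 253, 180 and 189 CPM in NF-YAfl/fl. Their mean was 4.44 ± 1.05 CPM against 207 ± 39.7 CPM (SD, n = 3 each), 46.6-fold lower in NF-YAcKO. NM_007868.6 alone was at 1.75, 1.13 and 0.89 CPM in NF-YAcKO and at 229, 150 and 167 CPM in NF-YAfl/fl. Nearly all Dmd reads of NF-YAfl/fl SCs were thus assigned to long forms (98.7% to 99.5% of Dmd counts). In NF-YAcKO SCs a minority were (17.7% to 21.7%).

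The 4 transcripts from the internal start site went the other way, at 12.98, 15.5 and 16.1 CPM in NF-YAcKO and at 1.25, 0.37 and 0.10 CPM in NF-YAfl/fl. Of these, NM_001314034.1 was at 6.05, 7.76 and 6.09 CPM and NM_001314036.1 at 5.93, 7.73 and 10.02 CPM in NF-YAcKO. Both were listed at 0 counts in all 3 NF-YAfl/fl libraries, where a count of 0 allows up to 0.0900 to 0.111 CPM by counting error alone. Of the other two, NM_001314035.1 was found in NF-YAcKO replicate 1 only (0.99 CPM) and in all NF-YAfl/fl libraries (1.25, 0.37 and 0.10 CPM), and NM_001314037.1 was at 0.0083 CPM in NF-YAcKO replicate 1 and listed at 0 in the other 5 libraries.

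As a share of the Dmd TPM, long transcripts made 5.35%, 6.80% and 6.91% in NF-YAcKO and 92.5%, 88.9% and 96.8% in NF-YAfl/fl, a difference of -86.4 percentage points (two-sided exact permutation test, p = 0.1). This is the smallest p that 3 against 3 libraries can give, so the test cannot reach 0.05. The internal transcripts made 64.2%, 77.6% and 66.3% of the Dmd TPM in NF-YAcKO and 1.43%, 0.58% and 0.15% in NF-YAfl/fl. The groups stood far apart in both shares, and the share of counts in long forms gave the same order, at 17.7% to 21.7% in NF-YAcKO and 98.7% to 99.5% in NF-YAfl/fl.

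The remaining 2 short transcripts, of 1410 and 5600 nt, were at 1.59, 0.69 and 1.63 TPM together in NF-YAcKO and at 1.37, 2.16 and 0.41 TPM in NF-YAfl/fl. These TPM ranges overlap. In CPM the 2 together did not, at 2.85, 2.75 and 3.77 in NF-YAcKO and at 1.51, 2.04 and 0.88 in NF-YAfl/fl. The 5600 nt form, XM_006527773.1, was at 0.30, 0.43 and 0.50 TPM in NF-YAcKO and at 0, 0.03 and 0.07 TPM in NF-YAfl/fl. The 1410 nt form overlapped in TPM. Short and long Dmd transcripts share their last exons, so the division of reads between them is an estimate of RSEM and not a direct count. The reads were not at hand to count those that cross exons unique to a form.

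**Figure D2:**
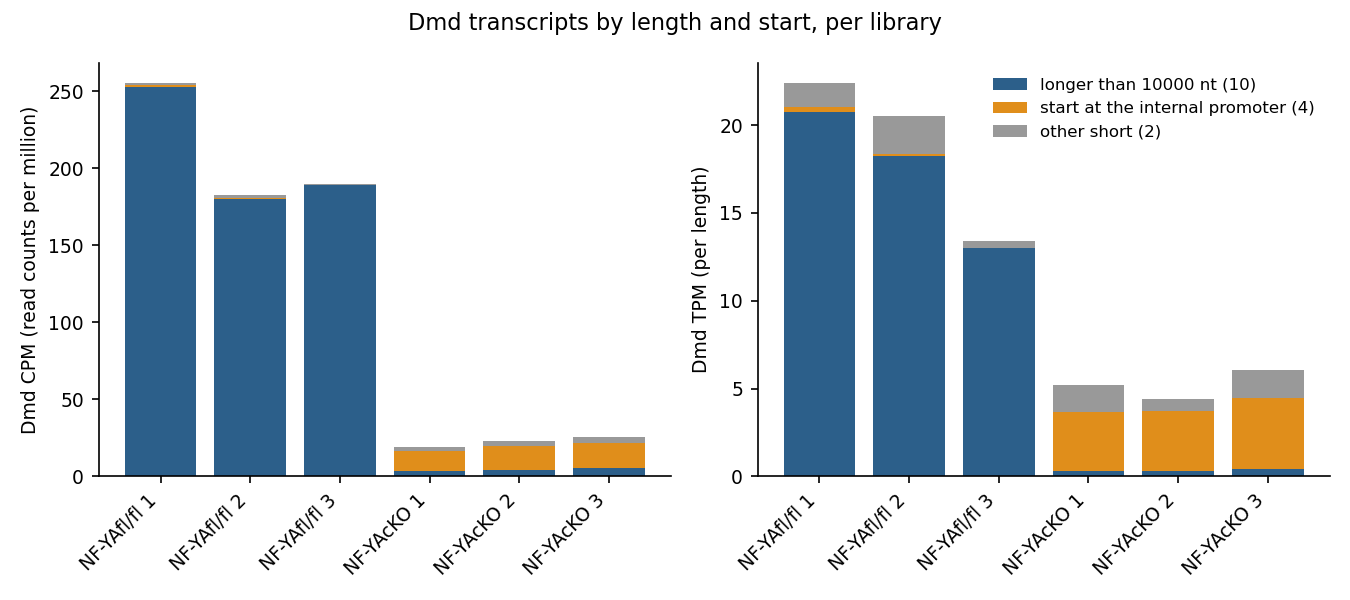
Dmd signal in each of the 6 libraries as stacked bars from 0, in CPM (left) and in TPM (right), split into transcripts longer than 10000 nt (blue), those that start at the internal promoter (orange) and other short ones, whose start was not placed (grey), with the number of transcripts in brackets. Long transcripts fill most of each NF-YAfl/fl bar (92.5%, 88.9% and 96.8% of TPM), and internal transcripts make 64.2% to 77.6% of the TPM of each NF-YAcKO bar.

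Utrn encodes utrophin (chr10:12382187-12869888), the autosomal paralog of dystrophin that takes its place at the membrane of developing muscle and stays at neuromuscular junctions. It was at 221, 239 and 248 CPM in NF-YAcKO and at 447, 466 and 489 CPM in NF-YAfl/fl. The libraries of each genotype were tight and did not overlap. The log2 fold change was -0.99 (SE 0.09, edgeR FDR 0.00066), so Utrn passed the FDR but not the limit on the fold change. Its fold change lay so close to that limit that it was called under 8 of 15 alternatives, over which it ranged from -0.93 to -1.05.

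Utrn was thus not higher where Dmd was low, but its ratio to Dmd was. Per length, the Utrn to Dmd ratio of TPM was 3.98, 4.36 and 3.71 in NF-YAcKO and 1.82, 2.55 and 2.81 in NF-YAfl/fl. The mean log2 ratio was 2.002 ± 0.12 against 1.24 ± 0.33 (SD, n = 3 each), a difference of 0.77 (two-sided exact permutation test, p = 0.1, the smallest possible). From expected counts, which weigh long transcripts more, the difference was 2.23. Set against long Dmd transcripts alone, the ratio of TPM was 74.5, 63.9 and 53.8 in NF-YAcKO and 1.97, 2.87 and 2.91 in NF-YAfl/fl.

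Dag1 encodes dystroglycan (chr9:108204861-108263977), whose precursor is cut into the laminin-binding outer subunit and the transmembrane subunit that holds dystrophin. It was at 112, 108 and 117 CPM in NF-YAcKO and at 319, 231 and 391 CPM in NF-YAfl/fl. The NF-YAcKO libraries were nearly alike, while NF-YAfl/fl replicate 3 was the highest. Dag1 fell by 1.48 on the log2 scale (SE 0.19, edgeR FDR 0.0017). The call was lost without NF-YAcKO replicate 1 (FDR 0.0102) or without NF-YAcKO replicate 2 (FDR 0.0129). Per length Dag1 was the most abundant of the 8 genes in both genotypes, with 22.6 ± 2.58 TPM in NF-YAcKO and 65.2 ± 4.99 TPM in NF-YAfl/fl (SD, n = 3 each).

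Among the sarcoglycans, Sgca (alpha-sarcoglycan, chr11:94962777-94976327), which is largely restricted to striated muscle, was at 11.5, 13.8 and 16.8 CPM in NF-YAcKO and at 42.4, 33.8 and 84.0 CPM in NF-YAfl/fl. NF-YAfl/fl replicate 3 held about as much as the other two together. Sgca fell by 1.93 on the log2 scale (SE 0.35, edgeR FDR 0.0062). Its call was the least stable of the 5, and was lost without any single NF-YAcKO library or without NF-YAfl/fl replicate 1 (FDR 0.0166 to 0.0310).

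Sgcb (beta-sarcoglycan, chr5:73632749-73647737), which is found in many tissues, was at 44.1, 51.3 and 50.7 CPM in NF-YAcKO and at 82.8, 66.8 and 111 CPM in NF-YAfl/fl. The groups did not overlap. Sgcb was nevertheless not called, with a log2 fold change of -0.84 (SE 0.19, edgeR FDR 0.0134). It passed only without NF-YAfl/fl replicate 2, at -1.003 (FDR 0.0048).

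Sgcd (delta-sarcoglycan, chr11:46971077-47989451), which striated and smooth muscle share, was at 22.6, 20.3 and 24.4 CPM in NF-YAcKO and at 65.4, 75.2 and 27.5 CPM in NF-YAfl/fl. Replicate 3 of NF-YAfl/fl stood with the NF-YAcKO libraries, and in TPM it overlapped them (4.70, against 4.61 to 6.42). The log2 fold change was -1.32 (SE 0.35, edgeR FDR 0.0232) and was not called. Without NF-YAfl/fl replicate 3 it was -1.65 (FDR 0.00013). The same library was also the lowest of NF-YAfl/fl in the sum of the pericyte and smooth muscle markers, at 181 CPM against 558 and 672 CPM. It was the lowest as well in the fibro-adipogenic sum (1069 CPM against 2246 and 2833 CPM) and in the macrophage and endothelial sums. In NF-YAcKO the pericyte and smooth muscle sums were 231 to 325 CPM and the fibro-adipogenic sums 1930 to 2332 CPM. The part of these cell types in the Sgcd values was not tested.

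Dtna (alpha-dystrobrevin, chr18:23310006-23659719), a dystrophin-related protein that joins dystrophin to the syntrophins, was at 11.96, 13.2 and 11.9 CPM in NF-YAcKO and at 81.6, 68.9 and 49.4 CPM in NF-YAfl/fl. All NF-YAcKO values lay within a narrow band far below the others. Dtna fell by 2.43 on the log2 scale (SE 0.19, edgeR FDR 0.00035) and was called under every alternative. Of its 40 transcripts, NM_010087.4 (1697 nt) was at 0.57, 0.22 and 0.41 TPM in NF-YAcKO and at 13.4, 9.52 and 6.13 TPM in NF-YAfl/fl. NM_001285817.1 (6210 nt) was at 1.07, 0.63 and 1.02 TPM in NF-YAcKO and was listed at 0 in NF-YAfl/fl. XM_017317817.1 (4623 nt) was at 6.25, 6.80 and 2.73 TPM in NF-YAfl/fl and was listed at 0 in NF-YAcKO. NM_010087.4 was thus found in all 6 libraries, NM_001285817.1 in those of NF-YAcKO and XM_017317817.1 in those of NF-YAfl/fl. This again holds as far as RSEM could divide the reads, and other Dtna transcripts are not given here.

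Sntb1 (beta-1-syntrophin, chr15:55636388-55907302), an adaptor that binds dystrophin and its relatives, was at 3.38, 4.51 and 5.66 CPM in NF-YAcKO and at 101, 69.3 and 147 CPM in NF-YAfl/fl. It had the largest difference of the 8. Sntb1 fell by 4.54 on the log2 scale (SE 0.34, edgeR FDR 0.00029), a 23.3-fold lower level, and was called under every alternative. Both of its transcripts shared the difference, with XM_006520671.3 at 1.34 to 2.21 TPM in NF-YAcKO and 34.1 to 48.0 TPM in NF-YAfl/fl.

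The order of the 8 genes by TPM differed between the genotypes. In NF-YAfl/fl, Dag1 (65.2) was followed by Sntb1 (44.2), Utrn (43.7) and Sgca (43.6), whose ranges overlapped, and then by Sgcb (26.9), Dtna (23.7), Dmd (18.8) and Sgcd (14.7), where each overlapped the next. In NF-YAcKO, Dag1 (22.6) and Utrn (20.9) overlapped, then came Sgcb (14.5) and Sgca (11.4), which overlapped, Sgcd (5.61) and Dmd (5.25), which overlapped, Dtna (2.83) and Sntb1 (1.85). Sntb1 thus stood next to the top in NF-YAfl/fl and at the bottom in NF-YAcKO.

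The spread within genotypes was not the same for all members. In NF-YAfl/fl, replicate 3 was the highest library for 5 genes (Utrn, Dag1, Sgca, Sgcb and Sntb1) and the lowest for Sgcd and Dtna, while replicate 2 was the lowest for 5 (Dmd, Dag1, Sgca, Sgcb and Sntb1). In NF-YAcKO, replicate 1 was the lowest for 5 genes and replicate 3 the highest for 6. NF-YAcKO replicate 1 was also the lowest, and replicate 3 the highest, in the summed differentiated muscle markers, at 619 and 1388 CPM.

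**Figure D3:**
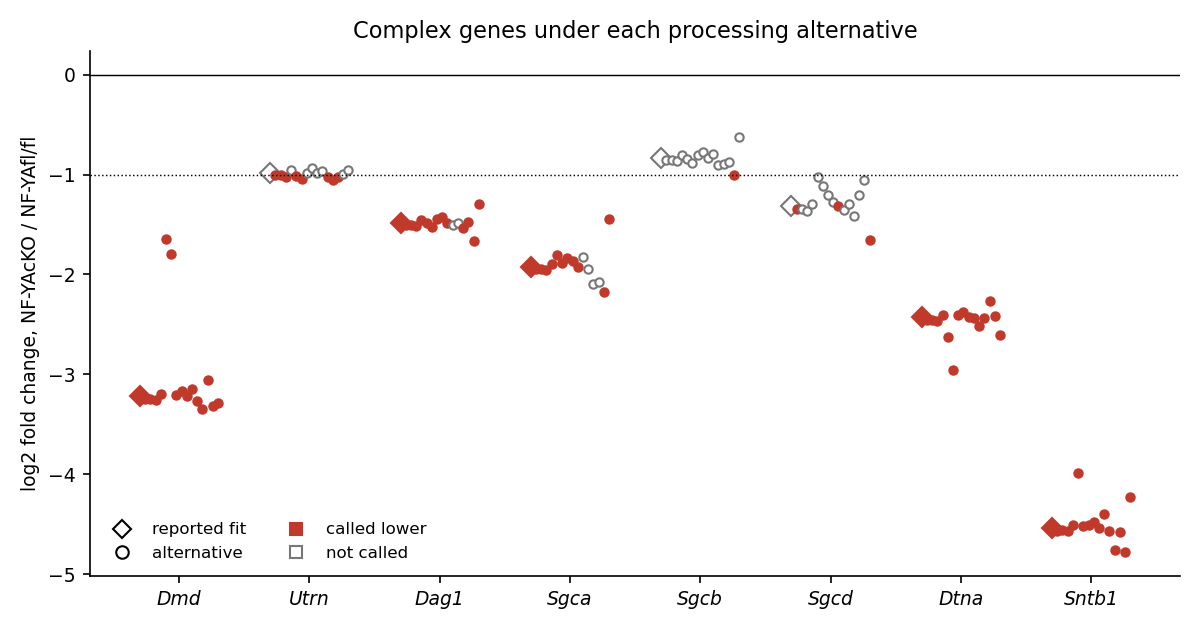
Log2 fold change of each complex gene in the reported fit (diamond) and under 15 alternatives (circles), filled red where the gene was called lower. All values are below 0; Dmd, Dtna and Sntb1 are red throughout, Utrn lies on either side of the limit at -1, and the pair of Dmd circles at -1.64 and -1.80 comes from TPM.

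To place the 8 genes among their partners, a wider list of 37 genes was used, made of other complex members, linked filament or scaffold proteins, matrix ligands and the enzymes that glycosylate dystroglycan. Of these, 35 were tested. Sgcz and Sntg2 had too few counts. Of the 35, 6 fell (17.1% of them, beside 7.67% of all tested genes) and none rose with edgeR or with DESeq2, while 18 had an unadjusted p under 0.05, of which 4 were higher in NF-YAcKO. The median log2 fold change was -0.29. Without NF-YAcKO replicate 1, 3 genes of the list were called lower, and without either other NF-YAcKO library or NF-YAfl/fl replicate 3, 4 were.

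Cav3 (caveolin-3), the caveolin of muscle, which binds dystroglycan, was at 0.67, 0.65 and 0.92 CPM in NF-YAcKO and at 121, 68.3 and 84.4 CPM in NF-YAfl/fl. The values of the genotypes did not come near each other. Cav3 fell by 6.92 on the log2 scale (SE 0.30, edgeR FDR 5.3e-05).

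Sspn, Sync, Lama2 and Hspg2 fell by less. Sspn (sarcospan), a membrane protein of the sarcoglycan subcomplex, was at 25.2 to 30.3 CPM in NF-YAcKO and 53.2 to 60.0 CPM in NF-YAfl/fl (log2 fold change -1.02, SE 0.11, edgeR FDR 0.00099), close to the limit on the fold change. Sync (syncoilin), an intermediate filament protein that binds alpha-dystrobrevin, was at 17.03 to 23.5 and 36.3 to 69.1 CPM (-1.26, SE 0.25, FDR 0.0085). Lama2, the laminin chain that dystroglycan binds in the muscle basement membrane, was at 80.9 to 108 and 208 to 282 CPM (-1.39, SE 0.16, FDR 0.0011). Hspg2 (perlecan), a further ligand of dystroglycan, was at 964 to 1069 and 1943 to 3246 CPM (-1.23, SE 0.21, FDR 0.0053).

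By role, 3 of 10 tested members of the complex, 1 of 6 linked filament or scaffold genes and 2 of 4 matrix ligands fell. Of the 15 glycosylation genes none was called in either direction, with log2 fold changes from -0.71 to 0.66, of which 9 were below and 6 above 0 (median -0.06), and 6 had an unadjusted p under 0.05, 3 of them higher in NF-YAcKO. None of the 15 was called by DESeq2 either. Plec, Mast2 and B4gat1 (named after their values were seen) passed the FDR but not the limit on the fold change, at -0.94, -0.45 and -0.56.

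**Figure D4:**
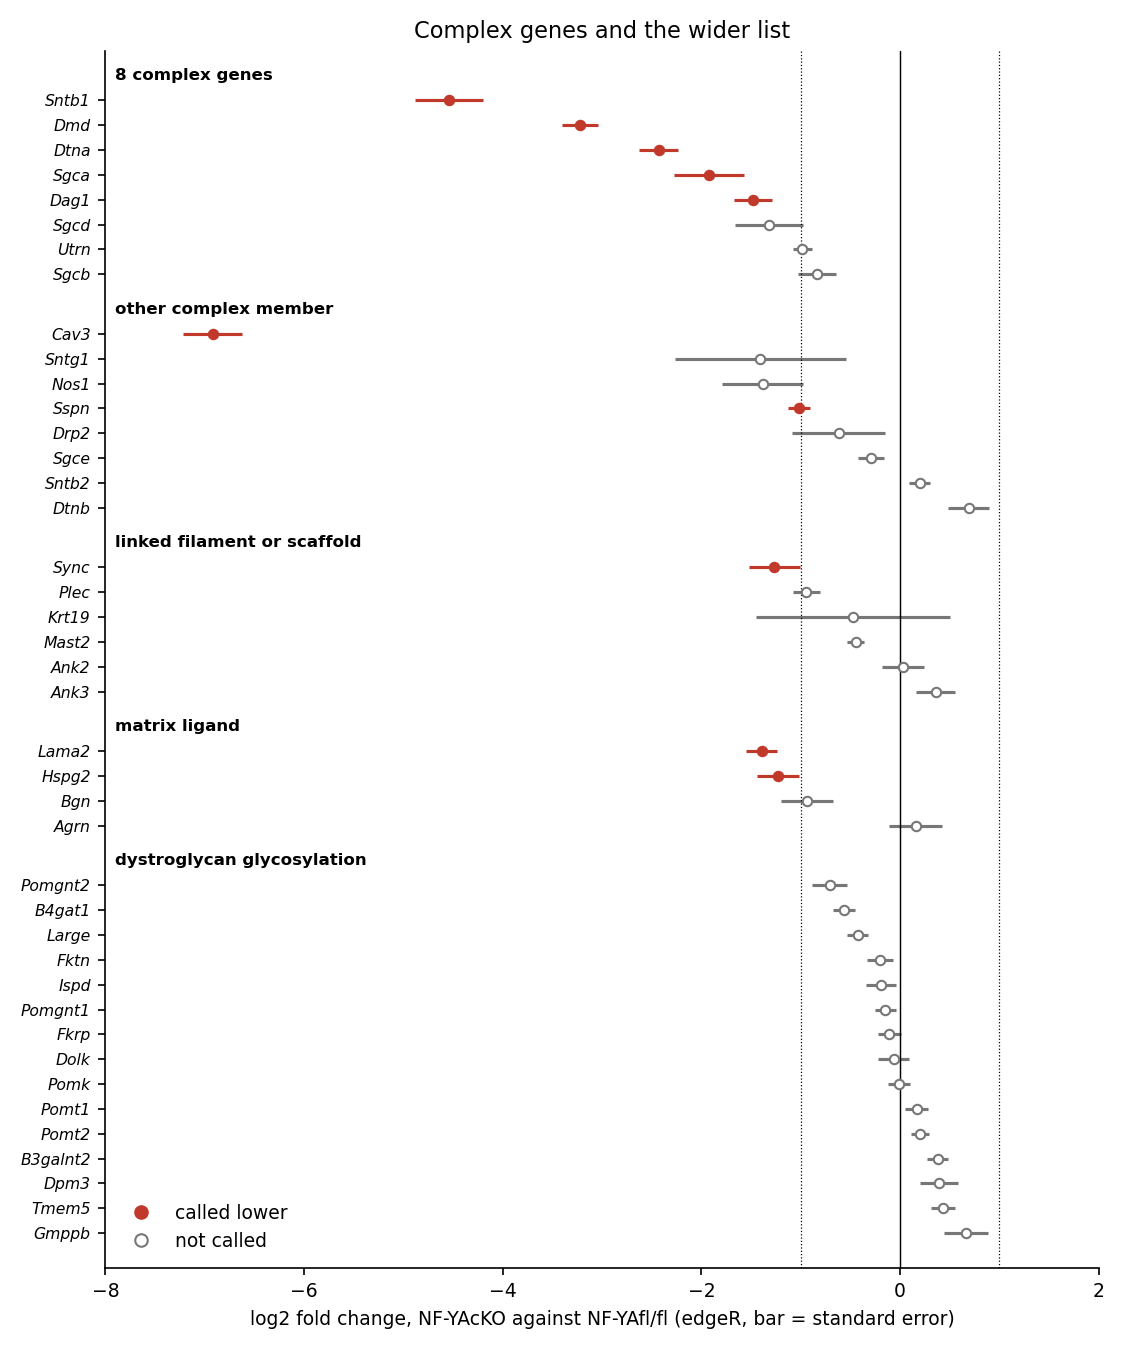
Log2 fold change of NF-YAcKO against NF-YAfl/fl with its standard error (edgeR) for the 8 complex genes and 33 of the 35 tested genes of the wider list, by role; filled red points were called lower, open grey points were not called, and dotted lines mark the limits at -1 and 1. Cav3 lies far to the left (-6.92), and the 15 glycosylation genes lie between -0.71 and 0.66.

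Relatives within the complex were compared as ratios of TPM, which are taken within each library. Sgce (epsilon-sarcoglycan, the widely expressed relative of alpha-sarcoglycan) had ratios to Sgca of 1.10, 0.84 and 0.65 in NF-YAcKO and 0.37, 0.45 and 0.15 in NF-YAfl/fl. Sgce itself was at 9.57 ± 0.99 TPM and 12.7 ± 3.24 TPM (SD, n = 3 each), with overlapping ranges. The epsilon form was on a level with the alpha form in NF-YAcKO, and below it in NF-YAfl/fl.

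Dtnb (beta-dystrobrevin, the relative found mainly outside muscle) had ratios to Dtna of 4.64, 4.47 and 4.28 in NF-YAcKO and 0.28, 0.40 and 0.27 in NF-YAfl/fl. Dtnb was at 12.6 ± 0.88 and 7.68 ± 3.50 TPM, and as a gene was not called (log2 fold change of counts 0.69, SE 0.21, edgeR FDR 0.0383). The beta form was the more abundant in every NF-YAcKO library and the alpha form in every NF-YAfl/fl library.

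The 3 pairs, Utrn to Dmd, Sgce to Sgca and Dtnb to Dtna, separated the genotypes completely, which in an exact permutation test gives p = 0.1 for each, the smallest value possible.

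**Figure D5:**
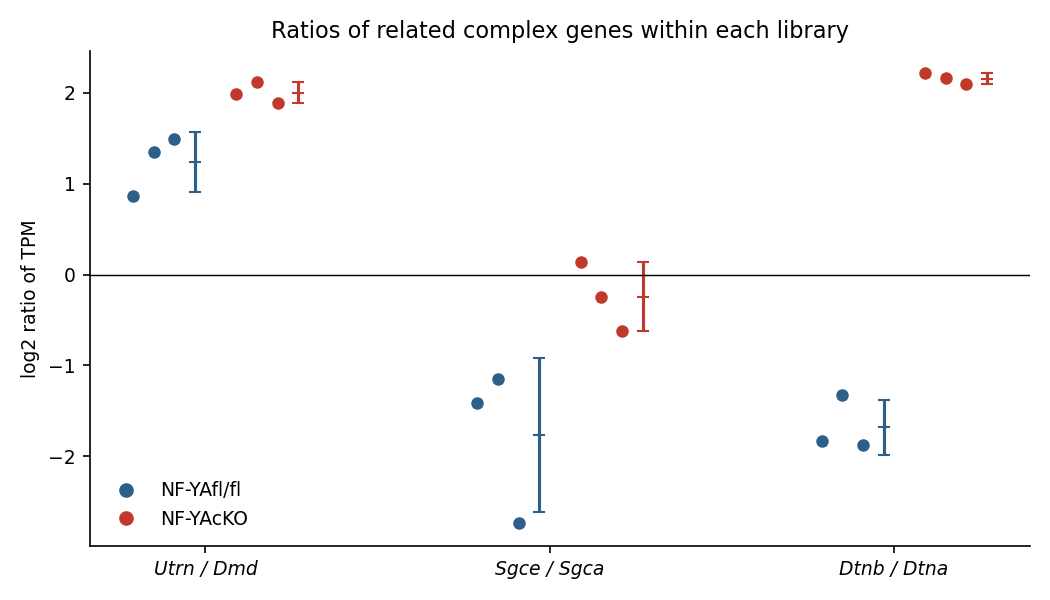
Log2 ratio of TPM of 3 pairs of related complex genes, with 1 point per library and, beside them, the mean with its SD (blue, NF-YAfl/fl, n = 3; red, NF-YAcKO, n = 3). Dtnb over Dtna lies above 0 in each NF-YAcKO library and below 0 in each NF-YAfl/fl library, and Utrn over Dmd is above 0 in all 6.

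The genes most like Dmd were sought among the 9454 other tested genes that averaged 10 CPM or more, as those with the smallest root mean square difference from Dmd over the 6 libraries after each gene's log2 CPM was centred on its mean. They were Lmo7 (0.13), Fry (0.16), AI464131 (0.17), Prkg1 (0.18) and Dusp27 (0.18). Lmo7, for example, was at 14.5, 16.8 and 20.3 CPM in NF-YAcKO and at 162, 140 and 162 CPM in NF-YAfl/fl. Among the members, Dtna was the nearest to Dmd (0.45, rank 83), followed by Sntb1 (0.74, rank 164), and Sgcb was the farthest (1.23, rank 755).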

How the data were processed

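Strand-specific total RNA libraries (TruSeq) of 6 SC cultures were processed by the authors with Bowtie2 and RSEM against mouse mm10 transcripts (names from the methods and the submitters' processing notes). The deposited expected counts are estimates, not normalized, because RSEM splits reads shared by transcripts. The deposited TPM values are scaled by effective length to a fixed sum and keep no depth. The deposited percent of each gene's TPM per transcript was recomputed from TPM. The authors added entries for the deleted Nfya allele.

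Expected counts were rounded, and genes were kept where 2 or more libraries exceeded 10 counts (17348 of 35976), then tested with edgeR 4.0.16 (TMM, quasi-likelihood, genotype only, Benjamini-Hochberg over all tested genes). Calls required FDR below 0.01 plus an absolute log2 fold change above 1. On simulated counts of this contrast (16969 genes) 180 of 200 changed genes were recovered, with 0 false calls. Recovery was not tested separately by size of fold change or for the unequal spread within the genotypes. Transcript shares and ratios of TPM were compared with two-sided exact permutation tests (scipy), for which 0.1 is the smallest p. A level at 0 was bounded by 3 counts of the library total, which covers counting error only.

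Groups and replicate numbers came from the labels; p-values measure the spread between these samples. The members and lists were chosen with earlier results of these data known. The named genes include the 8 members, called genes of the wider list, 3 paralog pairs and the 5 genes nearest to Dmd. A few genes of these lists are counted but not reported here by name. Some genes carry older symbols in the files (Large, Ispd, Tmem5, Tmem8c). Alternatives were DESeq2, its size factors, other filters, limma on log2(TPM + 1) and log2(TPM + 0.1), an FDR of 0.05, a replicate block, and leaving out each library; library totals without TMM were added after seeing the data. Promoter windows and gene coordinates are from RefSeq (GRCm38.p6, the build called mm10), matched by symbol. Transcript starts are from GENCODE vM21.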

Additional observations from a re-analysis of the deposited data

How the results depend on the processing

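The numbers of complex genes called lower (5) and of wider-list genes called lower (6) ranged from 5 to 7 each under the alternatives that kept all libraries, and from 3 to 6 each when one library was left out. The lowest count, 3 in both, came without NF-YAcKO replicate 1. Neither list held a higher call under any of the 15 alternatives, and no complex gene or called wider-list gene changed direction. Among the complex genes, Dmd, Dtna and Sntb1 were called under all 15. DESeq2 called 7 members (adding Utrn and Sgcd), and TPM with limma called 6 (adding Utrn). Sync lost its call in 6 alternatives, Hspg2 in 5 and Sspn in 4, while Cav3 and Lama2 kept theirs in all.

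The difference in the share of long Dmd transcripts was -79.4 percentage points in counts and -78.7 with a limit of 5000 nt, and ranged from -88.3 to -84.3 when one library was left out. The log2 difference of the Utrn to Dmd ratio was 0.62 with (TPM + 1), 2.23 with expected counts, and 0.58 to 0.89 when one library was left out. With 2 against 3 libraries the exact test gave p = 0.2, the value of complete separation.

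Deviations of same-numbered libraries were weakly correlated at most (0.17, -0.07 and 0.05). With 3 libraries per genotype, such values cannot decide whether the numbers pair the samples. With the replicate block 5 complex genes and 5 wider-list genes were called lower. Over all tested genes the block gave 625 higher and 947 lower calls, against 806 and 1331 without it. Counts over all tested genes moved by over 1.5 times with limma on log2(TPM + 1) (231 higher and 704 lower). So did the higher calls with limma on log2(TPM + 0.1) (361) and the lower calls with an FDR of 0.05 (2025). Leaving out any NF-YAcKO library (177 to 283 higher, 523 to 664 lower) or NF-YAfl/fl replicate 1 (298 and 819) also moved them that far. Without NF-YAfl/fl replicate 2 (890 and 1265) or replicate 3 (854 and 1684) they moved less. No scaling moved the median log2 fold change of all genes by over 0.1. At this depth several Dmd transcripts rest on few counts, such as 2.96 expected counts for the internal forms together in NF-YAfl/fl replicate 3.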

Other observations

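Drp2 encodes dystrophin-related protein 2, which is known from Schwann cells. It was at 73.4, 87.5 and 84.4 CPM in NF-YAcKO and at 73.6, 67.5 and 236 CPM in NF-YAfl/fl, and was named after its values were seen. NF-YAfl/fl replicate 3 stood apart from the other 5 libraries, which lay within a narrow band. In the same library the summed Schwann markers were at 11.7 CPM, against 8.03 and 8.56 CPM in the other NF-YAfl/fl libraries. In NF-YAcKO these sums were higher, at 32.5 to 35.9 CPM. The part of Schwann cells in the Drp2 values was not tested. Myod1, the myogenic determination factor, was at 1146 CPM in NF-YAfl/fl replicate 3 and at 361 and 295 CPM in the other NF-YAfl/fl libraries.

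Sntb2 (beta-2-syntrophin), also named after its values were seen, was at 48.7, 42.6 and 46.1 CPM in NF-YAcKO and at 39.3, 43.6 and 36.8 CPM in NF-YAfl/fl, and its groups overlapped. Per length it was at 11.5 ± 1.69 TPM in NF-YAcKO and 10.8 ± 2.98 TPM in NF-YAfl/fl (SD, n = 3 each).

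Within Dag1, all 3 NF-YAcKO values lay below all 3 NF-YAfl/fl values for the 2 most abundant transcripts. NM_001276482.1 was at 8.29 to 9.07 TPM against 20.5 to 21.5 TPM, and NM_001276486.1 at 7.17 to 9.59 TPM against 21.8 to 27.1 TPM.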
